A study of Mus musculus with 12 samples.

Results

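The genes described here encode or control the major histocompatibility complex (MHC) class II of the mouse, and they were taken by symbol alone: H2-DMa, H2-DMb1, H2-DMb2, H2-Aa, H2-Ab1, H2-Eb1, H2-Ea, Cd74 and Ciita. All 9 had a row among the 15154 rows of the deposited table, and 8 of them were among the 8107 genes detected often enough to be tested. The 12 samples, 1 Illumina bead array each, were of colonocytes, the absorptive epithelial cells of the colon, isolated from C57BL/6 mice and flash-frozen. The germfree group (GF) held 6 samples of mice kept without microbes in isolators, and the conventionally raised group (CONV) held 6 samples of mice with a gut microbiota. The first batch, per the labels, held CONV1 to CONV3 and GF1 to GF3, and the second held CONV4 to CONV6 and GF4 to GF6. Both groups were of the same strain, with no transgene and no agent named, and the labels call the 6 samples of a group biological replicates without saying whether each came from its own mouse, so p-values measure the spread between these samples, which may in part be technical.

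MHC class II molecules are pairs of an alpha and a beta chain that carry peptides from endosomes to the cell surface, where CD4+ T cells read them. The invariant chain escorts newly made class II molecules and fills their groove, endosomal proteases cut it down to the fragment called CLIP, and the H2-DM heterodimer exchanges CLIP for peptide. Ciita is the transactivator that switches these genes on together, in dendritic cells and B cells without a stimulus and in many epithelial cells after interferon gamma. Intestinal epithelial cells are known to carry class II molecules when the microbiota or inflammation supplies that signal.

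One CONV sample stood apart in these genes before any comparison was made. In CONV4 all 8 tested class II genes exceeded the mean of CONV5 and CONV6, the other CONV samples of batch 2, by 1.83 (H2-DMa) to 4.81 (H2-Aa) on the log2 scale. They took 8 of the 11 highest places among 8107 genes ranked by this difference, whereas 0.456% of all genes lay above that mean by more than 1. H2-Aa was first, 28.1-fold above that mean, and Cd74 was second with 16.4-fold. One GF sample lay high as well: GF5 exceeded the mean of GF4 and GF6 in all 8 genes, by 0.60 to 2.21, and 8.93% of all genes did so by more than 0.5. These limits of 1 and 0.5 were chosen with the values in view and describe the samples. The within-group SD of the class II genes had a median of 0.12 in batch 1 and 1.41 in batch 2, against 0.09 and 0.20 over all genes. The class II genes are therefore also given within each batch and without CONV4.

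**Figure D1:**
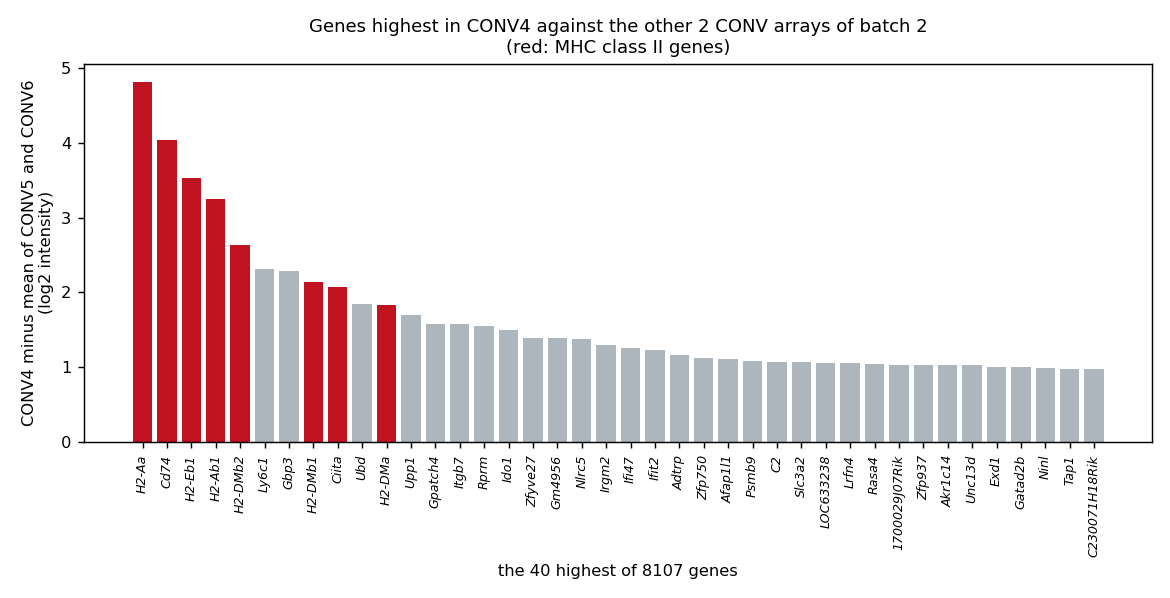
Bars show the difference between CONV4 and the mean of CONV5 and CONV6 (log2 intensity) for the 40 genes with the highest values of 8107, with the MHC class II genes in red. The 8 tested class II genes fill places 1 to 5, 8, 9 and 11, from 4.81 for H2-Aa to 1.83 for H2-DMa.

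With all 12 arrays and the batch as a term in limma, H2-DMa and H2-DMb1 fell in GF colonocytes and the other 6 tested genes did not pass the threshold (Benjamini-Hochberg adjusted p under 0.05 over all genes tested). Of all genes tested 12% fell and 23% changed in either direction. All 8 differences (GF minus CONV) were below 0, from -1.75 (Cd74) to -0.56 (Ciita), with a median of -1.38 beside 0.01 over all genes. In batch 1 alone all 8 fell, where 23.5% of all genes fell and 46.8% changed either way, and every GF array lay below every CONV array for each of them, as for 28.4% of all genes. In batch 2 alone 0 of 8 passed in limma, 2 had an unadjusted p under 0.05, and of all genes 1.55% fell and 2.62% changed either way. A difference between the batches was not called for any of the 8 (lowest adjusted p of the interaction 0.766), while 8.61% of all genes differed. The standard errors of these 8 interactions ran from 0.59 to 1.51, so a large difference could be missed and likeness of the batches is not shown. Without CONV4, H2-DMa and H2-DMb1 again were the genes that fell, with 11.3% of all genes. In batch 2 without CONV4, however, 5 of the 8 differences were below 0 and 3 above 0 (H2-Aa, H2-Eb1 and Ciita), with a median of -0.14 and 0 called, 0 with an unadjusted p under 0.05 and 0.567% of all genes called. These arrays hold RNA of many cells, so fewer cells that carry a transcript and less transcript per cell cannot be told apart.

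**Figure D2:**
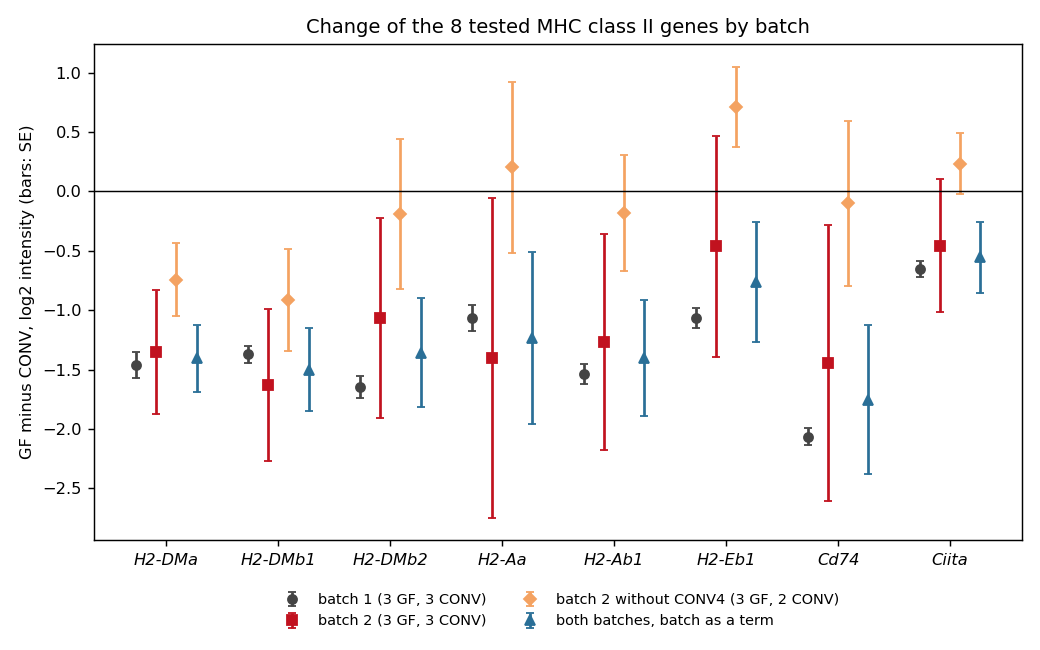
Points show the difference between GF and CONV (log2 intensity) for the 8 tested genes in batch 1, in batch 2, in batch 2 without CONV4 and over both batches, and bars show the standard error. The 8 points of batch 1 lie between -2.06 and -0.66 with short bars, those of batch 2 between -1.63 and -0.46 with long bars, and without CONV4 those of batch 2 spread from -0.92 to 0.71.

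The genes that fell both encode chains of the peptide exchanger H2-DM. H2-DMa, which encodes the alpha chain, had normalised log2 intensities of 7.72, 7.51 and 7.42 in CONV1 to CONV3 and of 6.27, 5.92 and 6.08 in GF1 to GF3. In batch 2 it had 9.78, 8.33 and 7.58 in CONV4 to CONV6 and 7.17, 7.61 and 6.86 in GF4 to GF6. The groups were apart in batch 1 and overlapped in batch 2, where GF5 lay just above CONV6. H2-DMa fell by 1.41 ± 0.29 (SE, 6 against 6 arrays), a 2.65-fold drop with an adjusted p = 0.00445 in limma. The size of this drop depended on the background correction: the log2 difference was -0.91 with none and -0.55 with the controls inferred from all rows of the table. Its difference was -1.46 within batch 1 (adjusted p = 1.27e-05) and -1.35 within batch 2 (adjusted p = 0.228), and without CONV4 it was -1.14 (adjusted p = 0.00204). It was detected on all 12 arrays.

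H2-DMb1, a gene for the beta chain, had 6.38, 6.32 and 6.24 in the CONV arrays of batch 1, where the GF arrays had 4.83, 5.03 and 4.97 and did not reach detection. In batch 2 its CONV arrays had 9.39, 7.25 and 7.26 and its GF arrays 5.91, 7.23 and 5.87. All its GF arrays lay below the CONV arrays in batch 2 as well, although GF5 (7.23) nearly reached CONV5 (7.25). It was 1 of the 8 tested class II genes with that order in batch 2, near the share over all genes (12.9%). H2-DMb1 fell by 1.50 ± 0.35 (SE) with an adjusted p = 0.00890, a fitted 2.83-fold drop in which only 3 of the 6 GF arrays measured the gene above background. Its log2 difference was -0.83 with no background correction, -0.89 in the value table as deposited and -0.37 with the controls inferred from all rows. Within batch 1 the fitted drop was 2.58-fold (adjusted p = 1.88e-06). Since its GF arrays there lay near background, this fold is uncertain and is not a lower bound. In batch 2 the difference was -1.63 (adjusted p = 0.235), and without CONV4 it was -1.17 over both batches (adjusted p = 0.00370).

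H2-DMb2 encodes a second beta chain that is closely related to H2-DMb1, and since probe sequences were not used here, signal shared by the pair cannot be told apart. Its values were 6.59, 6.85 and 6.87 in CONV1 to CONV3 and 5.23, 5.13 and 5.02 in GF1 to GF3, with no overlap. In batch 2 they were 8.32, 5.95 and 5.42 in the CONV arrays and 4.63, 6.77 and 5.08 in the GF arrays, where GF5 exceeded CONV5 and CONV6. H2-DMb2 was detected on 4 CONV and 2 GF arrays. The difference of -1.36 ± 0.46 (SE) sat at the threshold, with an adjusted p = 0.0507 in limma, and 0.0828 without CONV4. With other estimates of the array controls the adjusted p was 0.0493 (ordinary line), 0.0533 (moments) and 0.197 (all rows, difference -0.21). With no background correction the difference was -0.70 (adjusted p = 0.0542). Within batch 1 the difference was -1.64 (adjusted p = 2.82e-06) and within batch 2 -1.07 (adjusted p = 0.529). Both H2-DMa and H2-DMb1 failed to pass under 5 of 33 alternatives: no batch term (adjusted p = 0.122 and 0.248), batch 2 alone, batch 2 without CONV4 (0.303 and 0.351), batch 1 averaged into 1 sample per group (0.120 and 0.140), and controls inferred from all rows of the table (0.140 and 0.259).

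**Figure D3:**
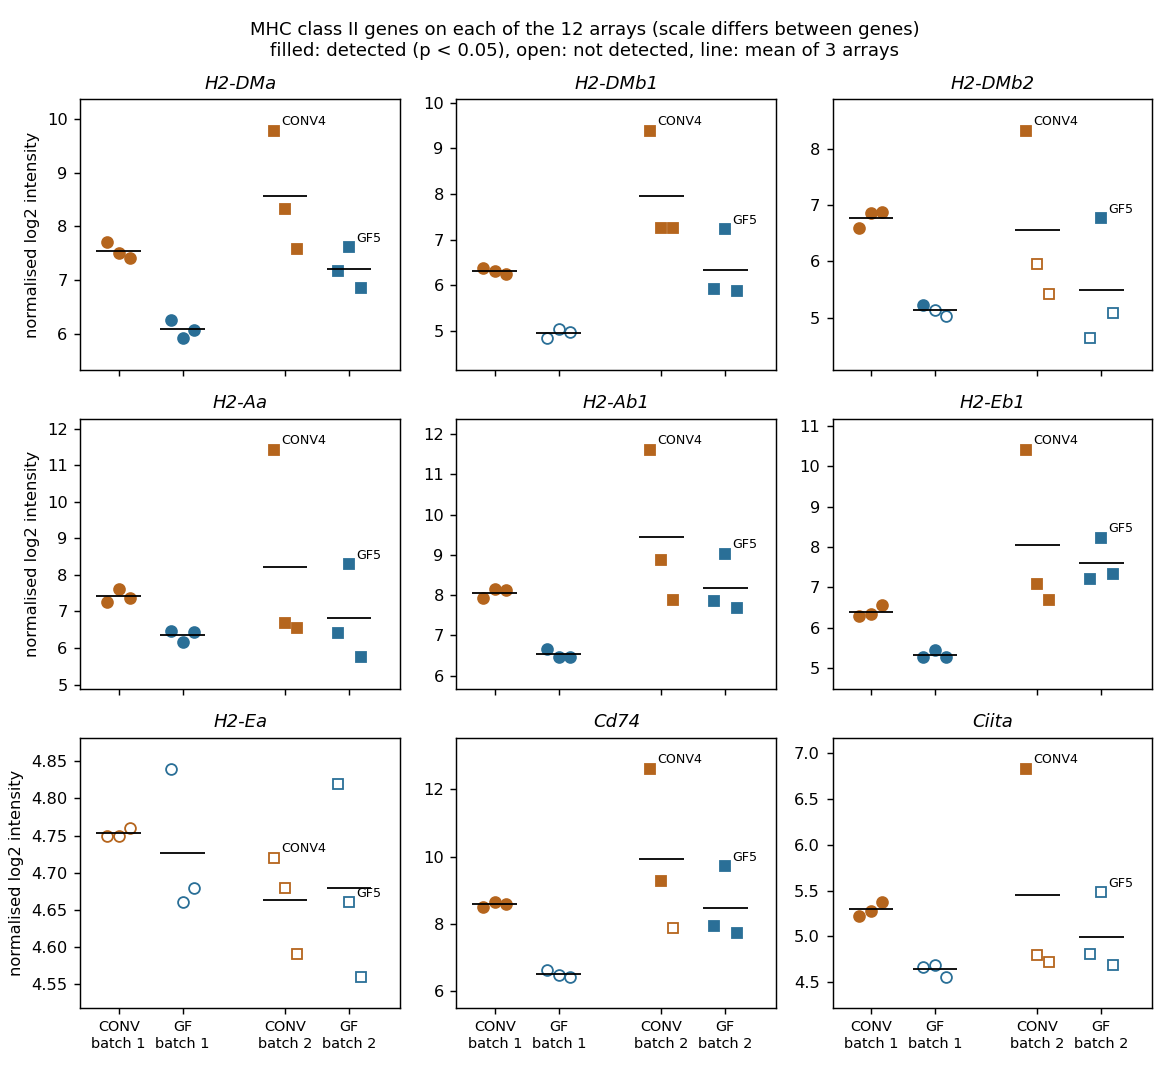
Each panel plots 1 gene, with normalised log2 intensity on the vertical axis (scales differ between panels) and the 3 arrays of each group and batch as points, filled where detected and open where not, with a line at their mean. In batch 1 the CONV arrays lie above the GF arrays in every panel but that of H2-Ea, and in batch 2 CONV4 is the highest array in the same 8 panels.

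Among the chains that present peptide, the 3 that gave signal had lower GF means without passing over both batches. H2-Ab1, the beta chain of the I-A molecule, had 7.92, 8.14 and 8.13 in CONV1 to CONV3 against 6.66, 6.45 and 6.47 in GF1 to GF3. In batch 2 it had 11.61, 8.86 and 7.87 in the CONV arrays and 7.85, 9.03 and 7.67 in the GF arrays, so that GF5 was second only to CONV4. Its difference was -1.40 ± 0.49 (SE, adjusted p = 0.0576), -1.54 within batch 1 (adjusted p = 2.97e-06), -1.26 within batch 2 (adjusted p = 0.490) and -0.94 without CONV4 (adjusted p = 0.0542).

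H2-Aa, the alpha chain of I-A, had 7.27, 7.62 and 7.36 in CONV1 to CONV3 and 6.46, 6.17 and 6.44 in GF1 to GF3. CONV4 reached 11.43 beside 6.68 in CONV5 and 6.55 in CONV6, and the GF arrays of batch 2 had 6.41, 8.29 and 5.74. The difference of -1.23 ± 0.72 (SE, adjusted p = 0.248) was -0.50 without CONV4 (adjusted p = 0.407), -1.06 within batch 1 (adjusted p = 8.86e-05) and -1.40 within batch 2 (adjusted p = 0.610). H2-Eb1, the beta chain of the I-E molecule, had 6.30, 6.33 and 6.56 in CONV1 to CONV3 and 5.28, 5.45 and 5.26 in GF1 to GF3. Its arrays in batch 2 had 10.41, 7.07 and 6.69 (CONV) and 7.21, 8.23 and 7.34 (GF), so that every GF array exceeded CONV5 and CONV6. The difference for H2-Eb1 was -0.76 ± 0.51 (SE, adjusted p = 0.309), -1.07 within batch 1 (adjusted p = 2.32e-05), -0.46 within batch 2 (adjusted p = 0.832) and -0.27 without CONV4 (adjusted p = 0.574). H2-Ea, the alpha chain of I-E, is known to be defective in C57BL/6 mice, and its row stayed between 4.56 and 4.84 with no array at detection, so it was not tested.

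Cd74, the gene of the invariant chain, had the largest fitted difference of the 8. Its values were 8.50, 8.66 and 8.58 in CONV1 to CONV3 and 6.62, 6.49 and 6.44 in GF1 to GF3. In batch 2 they were 12.60, 9.26 and 7.88 in the CONV arrays and 7.95, 9.71 and 7.74 in the GF arrays, which overlapped. The difference was -1.75 ± 0.63 (SE, adjusted p = 0.0629), -2.06 within batch 1 (adjusted p = 2.38e-07), -1.44 within batch 2 (adjusted p = 0.537) and -1.19 without CONV4 (adjusted p = 0.0808). The row of Cd74 combines several probes, and such a row can count as not detected while bright, as in CONV6 and in GF1 to GF3.

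Ciita, the transactivator, was detected on the fewest arrays of the 8. It was detected in 4 of 6 CONV arrays, namely CONV1 to CONV3 (5.22, 5.28 and 5.38) and CONV4 (6.83), and on 0 of 6 GF arrays, whose values ran from 4.56 to 5.48. The remaining CONV arrays had 4.80 and 4.72, below GF4 (4.81) and GF5 (5.48). Over both batches the fitted difference was -0.56 and did not pass (adjusted p = 0.213). With GF values below the lowest detected signal raised to it, the CONV mean lay 1.31-fold above GF, CONV4 included. In batch 1 the fitted difference was -0.66 (adjusted p = 8.50e-05), and with GF values raised in the same way the CONV mean lay 1.37-fold above GF. These folds are not lower bounds, since a row above that signal could miss detection, as H2-DMb1 did at 5.03 in GF2. Within batch 2 the fitted difference was -0.46 (adjusted p = 0.704), and 0.23 there without CONV4. Without CONV4 the fitted difference over both batches shrank from -0.56 to -0.26 (adjusted p = 0.343).

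The class II genes moved together across the arrays of batch 2, where CONV4 and GF5 lay high in all 8. With each group centred within its batch, the Pearson correlations of the 28 pairs of tested genes ran from 0.878 to 0.997 with a median of 0.965 over the 12 arrays. Without CONV4, but with GF5 still included, they ran from 0.572 to 0.993 with a median of 0.870. In batch 1, where samples of a group hardly differed, the median was 0.07 (from -0.895 to 0.908). These are descriptions over arrays that share their batch. The mean of the 8 genes was 6.99 to 7.09 in the CONV arrays and 5.65 to 5.75 in the GF arrays of batch 1. In batch 2 it was 10.05 in CONV4, 7.27 in CONV5 and 6.75 in CONV6, and 6.49, 7.79 and 6.37 in GF4 to GF6, so that GF5 had the second highest mean of all 12 arrays.

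Class II promoters are known for an ordered set of elements, the X box bound by the RFX complex with CREB beside it and the Y box bound by NF-Y, on which Ciita docks. RefSeq promoter windows (GRCm38.p6, from 250 bases before to 50 bases after a start) are described for 5 of the 9 genes, in 6 windows. Those of H2-Ab1, H2-Ea, Cd74 and Ciita are not described, so nothing is said about their boxes. The stretches below are shown because the genes moved together on the arrays of batch 2. Capitals mark the letters searched on both strands: AAC and ATGATG with 2 bases between them for the X box, TGACGTCA for a CREB element and ATTGG for the Y box, which do not overlap in these stretches. The letters were chosen after these promoters had been read, so that a match is a description.
H2-DMb1, chr17:34153087-34153146, plus strand: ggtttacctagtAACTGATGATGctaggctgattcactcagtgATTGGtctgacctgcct
H2-DMb2, chr17:34145116-34145175, plus strand: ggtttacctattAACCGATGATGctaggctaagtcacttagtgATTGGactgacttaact
H2-Eb1, chr17:34305766-34305824, plus strand: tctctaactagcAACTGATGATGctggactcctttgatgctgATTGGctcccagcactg
H2-Aa, chr17:34287855-34287909, minus strand: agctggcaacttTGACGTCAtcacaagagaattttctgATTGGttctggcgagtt
The first 3 hold the X letters followed by the Y letters after 20, 20 and 19 bases, and H2-Aa holds the CREB letters followed by the Y letters after 18. Of 32851 promoter windows of the same length 0.137% held the X letters, 1.79% the CREB letters and 37.4% the Y letters. An X match followed within 40 bases by a Y match on the same strand was found in 5 windows (0.0152%), those of H2-DMb1, H2-DMb2, H2-Eb1, H2-Ob and 2310002L09Rik. The 2 windows of H2-DMa hold no X match.

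Of 7 genes of the factors that bind these boxes 6 had a row and 4 were tested, and 0 passed in limma over both batches, where 23% of all genes did, with a median difference of 0.10. Rfxap and Rfxank, subunits of the RFX complex, had differences of 0.15 (adjusted p = 0.179) and 0.10 (adjusted p = 0.604), and Nfyb of NF-Y had 0.11 (adjusted p = 0.279). Nfya, also of NF-Y, had -0.11 (adjusted p = 0.759), with 0.54 within batch 1 (adjusted p = 0.000450) and -0.75 within batch 2 (adjusted p = 0.0780).

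The relay from interferon gamma to Ciita had 8 genes reported, of which 1 rose and 1 fell, with a median of 0.15; this share is near the 23% of all genes that changed. Ifngr1, the ligand-binding chain of the receptor, rose by 0.71 ± 0.06 (SE, adjusted p = 1.45e-05), by a like amount in batch 1 (0.71) and batch 2 (0.72). Irf1, an interferon-induced transcription factor that acts at the Ciita promoter, fell by 0.37 ± 0.11 (adjusted p = 0.0314), and without CONV4 it passed as well (adjusted p = 0.0327). Ifngr2, the second receptor chain, and the factors Irf2 and Irf8 did not pass, with differences of 0.15, -0.02 and -0.23.

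Proteases and helpers that make peptides for class II gave 9 tested genes, of which 1 rose and 2 fell, beside 23% of all genes changed and 12% lower, with a median of -0.08. Ctsz, a carboxypeptidase of lysosomes, fell by 0.77 ± 0.10 (adjusted p = 0.000244), and Ctsc, the dipeptidyl peptidase that activates granule proteases, fell by 0.38 ± 0.10 (adjusted p = 0.0157). Lgmn, an asparaginyl endopeptidase, rose by 0.65 ± 0.18 (adjusted p = 0.0205). Within batch 1 the difference was 0.995 for Lgmn and -0.61 for Ctsc. Within batch 2 it was 0.295 for Lgmn and -0.15 for Ctsc, and neither passed there (adjusted p = 0.594 and 0.598 in limma). Ctsz was lower in both batches (-0.63 and -0.91). Ifi30, the thiol reductase of endosomes, had -0.06 (adjusted p = 0.534). H2-Oa and H2-Ob, which encode an inhibitor of H2-DM, were detected on 2 arrays each and were not tested. The costimulatory genes Cd86 and Cd40 were detected on 0 arrays, and the inhibitory ligand gene Cd274 fell by 0.55 ± 0.16 (adjusted p = 0.0289, and 0.0605 without CONV4).

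MHC class I presentation had 7 genes tested, of which 4 fell and 0 rose, beside 12% of all genes that fell, with a median of -0.32. Tap1, a chain of the peptide transporter, fell by 1.29 ± 0.20 (adjusted p = 0.000698), Psmb9, a subunit of the immunoproteasome, by 0.79 ± 0.19 (adjusted p = 0.0101), Nlrc5, the transactivator of class I genes and a relative of Ciita, by 0.77 ± 0.20 (adjusted p = 0.0167), and H2-D1, a class I heavy chain, by 0.32 ± 0.10 (adjusted p = 0.0328). Without CONV4 the first 3 passed and H2-D1 did not (adjusted p = 0.0624). In batch 1 alone all 4 fell, beside 23.5% of all genes. In batch 2 alone none of the 4 passed in limma, in the same order with adjusted p = 0.114, 0.349, 0.238 and 0.476. Nlrc5 was detected on 4 CONV and 3 GF arrays.

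Over all 12 arrays Psmb9 was also the gene most like the mean of the 8 class II genes, an order that changed without CONV4. With each batch centred its Pearson r over the 12 arrays was 0.957, followed by the guanylate-binding protein gene Gbp3 (0.946), Spats2l (0.944), Nlrc5 (0.928) and the surface antigen gene Ly6c1 (0.927). With each group centred within its batch Psmb9 led again (0.977), and Upp1, a uridine phosphorylase, and Ido1, the enzyme that breaks down tryptophan, were among the first 10 (0.952 and 0.950). CONV4 weighed on these values: Gbp3 and Ly6c1 were 2.28 and 2.31 higher there than in CONV5 and CONV6. Without CONV4, over 11 arrays with each batch centred, Ifi27l2b led (0.988), Spats2l had 0.981 and Psmb9, the fifth, 0.963. With each group centred within its batch Il17rb (0.989), Trim30a (0.988) and Slc30a10 (0.984) led those 11 arrays, and Psmb9 was not among the first 10. GF5 weighed on the values without CONV4. It exceeded the mean of GF4 and GF6 by 0.95 in Il17rb, 2.43 in Trim30a, 1.13 in Slc30a10 and 1.02 in Ifi27l2b. Gbp3 and Ly6c1 were lower in GF by 1.27 and 1.15 without passing (adjusted p = 0.0530 and 0.0568), and Upp1 and Ido1 had differences above 0 (0.31 and 0.53) that did not pass either.

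Since dendritic cells and B cells carry class II molecules without a stimulus, markers of the other cells that a colonocyte preparation could hold were read on the same arrays. Ptprc (CD45), the common leukocyte antigen, was detected on 0 of 12 arrays. Other leukocyte markers did give signal. Coro1a was detected on 5 CONV and 6 GF arrays. Of 7 T cell markers with a row 2 were detected on no array, whereas Cd3g and Lck were detected on all 6 CONV and all 6 GF arrays. The Ptprc row alone therefore does not show whether leukocytes were present. Of 4 B cell markers with a row, 3 were detected on no array, Cd79b and Cd22 among them, and 0 were tested. Their summed log2 intensity was 18.44 to 18.91 in CONV and 18.50 to 18.80 in GF arrays, with CONV4 at the lowest value. These rows lay near background, so the sum and its order do not measure B cells. Of 13 dendritic cell and macrophage markers with a row, 7 were detected on no array, including Itgam, Csf1r, Aif1 and Tyrobp, and 5 were tested.

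Among those 5, Cd14, an endotoxin co-receptor, fell by 0.61 ± 0.17 (adjusted p = 0.0249) and the lysosomal gene Cd68 rose by 0.89 ± 0.29 (adjusted p = 0.0453, and 0.0532 without CONV4). Within batch 1 the differences were -1.015 for Cd14 and 1.77 for Cd68. Within batch 2 they were -0.20 and 0.02, and neither passed there. Cd83 had a difference of 0.24 that did not pass. The summed log2 intensity of this list was 68.31 to 72.16 in CONV and 68.19 to 70.79 in GF arrays, and CONV4 had the highest sum, beside 69.43 in CONV5 and 71.27 in CONV6. The 4 markers of all leukocytes with a row summed to 20.28 to 24.06 in CONV and 20.58 to 24.06 in GF arrays. CONV4 was again highest among the CONV arrays (23.13 in CONV5 and 22.59 in CONV6). Both sums include rows that were detected on no array, so the sums and their order do not measure these cells. Coro1a and Rac2, the 2 tested, did not pass (0.07 and -0.07). Coro1a had 6.85 in CONV4, 7.13 in GF4 and 6.41 in GF5, and Rac2 had 6.08, 5.57 and 5.79.

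Among T cell markers Cd8b1 fell by 0.76 ± 0.16 (adjusted p = 0.00543), though it was detected on only 3 of 12 arrays, and Cd3g and Lck did not pass (0.37 and -0.18). Plasma cell markers had 2 tested genes and fibroblast markers 2, of which 0 passed. Colonocyte markers gave 11 tested genes, 1 higher and 2 lower, beside 23% of all genes changed and 12% lower. On every array 9 or 10 were detected, but not the same ones in both batches. Krt20 had 4.63 to 4.82 in batch 1 and 12.26 to 13.26 in batch 2. Epcam had 6.02 to 6.55 in batch 1 and 4.69 to 5.29 in batch 2. The part of these other cells in the class II differences was not tested beyond these levels.

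**Figure D4:**
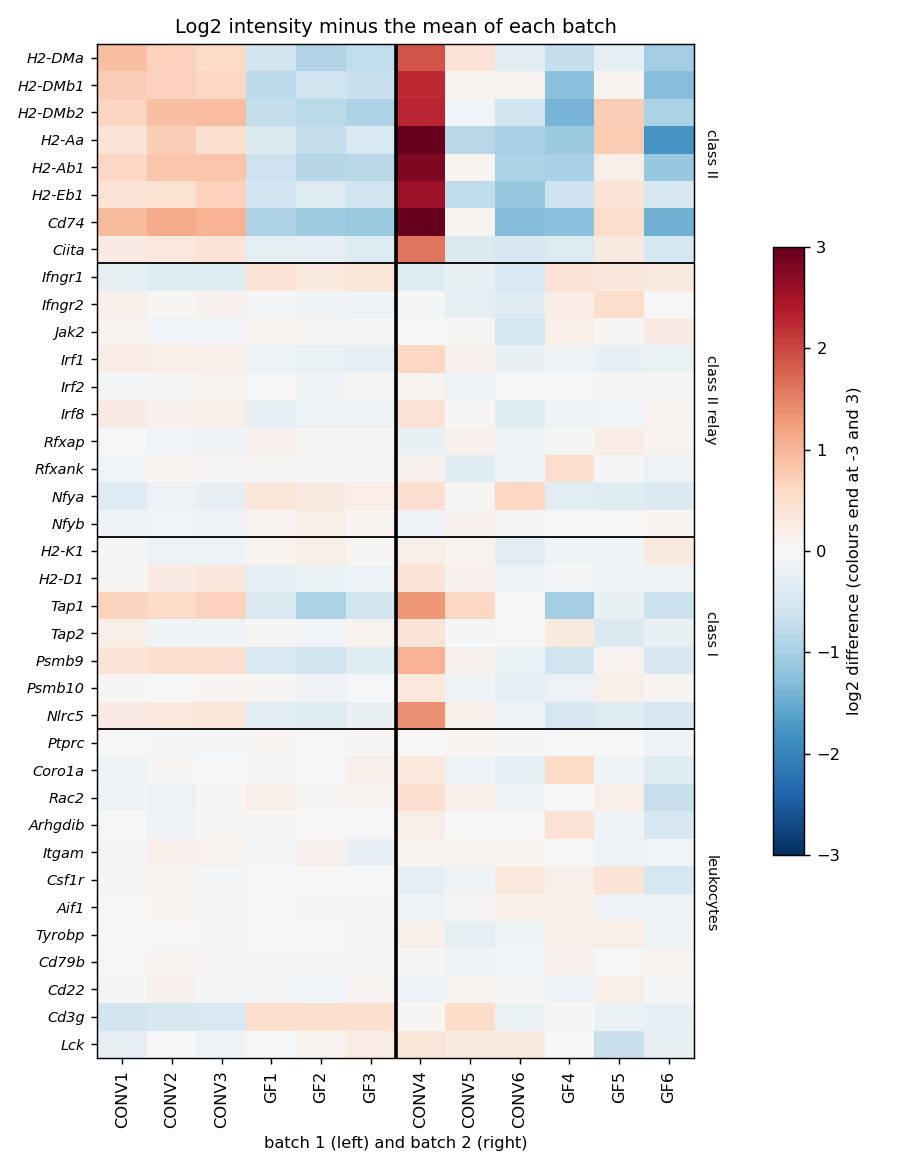
Colours show log2 intensity minus the mean of the 6 arrays of the same batch, with genes in rows (class II genes, the relay and box factors, class I presentation, leukocyte markers) and arrays in columns, batch 1 on the left. The class II block is red in CONV1 to CONV3 and blue in GF1 to GF3, CONV4 is its reddest column with H2-Aa and Cd74 at the end of the scale, and Ptprc, Cd79b and Cd22 stay near white on all 12 arrays.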

How the data were processed

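Trizol was used to extract the RNA and an Ambion kit to make biotin-labelled cRNA, per the labels' protocols. The submitters' processing notes name limma, with no version, while array design and scanner software are not given.

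The authors deposited intensities as natural logs, since exponentials of 95.5% to 97.9% of an array's values had 7 significant digits or fewer (base 2: at most 8.44%). The deposited detection p-values move in steps of 1 in 1603 (batch 1) or 1 in 1872 (batch 2) for 10141 and 9533 rows, and other rows combine probes. Arrays of batch 2 shared 1831 to 1992 exact values in pairs, those of batch 1 186 to 216, so batch 2 may have been treated further before deposit. The plan spoke of probes and intensities, whereas rows are genes and values logs.

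Intensities were corrected with normexp (offset 16) and quantile normalized as log2 values (R 4.3.3, limma 3.58.1). Mean and SD of the array controls came from a robust line (MASS 7.3.60.0.1) of intensity on the normal quantile of detection p over rows in steps. This estimate was chosen after several had been run with the class II values in view. limma's own inference over all rows gave a control SD of 171 to 373, against 7.76 to 18.4 read directly from the rows in steps and 9.57 to 17.8 from the line. A row was tested if 3 or more arrays had a detection p below 0.05 (8122 rows, 8107 genes, brightest row per gene). limma's lmFit and eBayes were fitted with batch and group, within batches and with their interaction, two-sided, with Benjamini-Hochberg adjustment over all genes tested. The fit was tested on simulated data. For a gene below background in a whole group, the other group's mean was also set against each array's lowest detected signal, or the gene's own where that is higher. Rows above that signal could still miss detection, so the resulting fold is not a lower bound. Of the row names 2532 were older symbols updated through RefSeq, and 892 had no match. Between 7090 and 7402 rows were detected on arrays of batch 1 and 6089 to 6470 on those of batch 2, and same-group arrays correlated at 0.993 to 0.998 and 0.979 to 0.989 across genes. The number of arrays limits the precision.

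The 9 genes and the 15 lists (130 genes, these 9 included) were chosen with earlier results of these data known. Named genes are the 9, list genes that passed or were brightest, and the 10 most like the class II mean, shortened to 45 after values were seen. Some results are not reported here. Cd86, Cd40, H2-Oa, H2-Ob, Nfya, other markers, Ifi27l2b, Il17rb, Trim30a, Slc30a10 and 2310002L09Rik were also named after seeing values.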

Additional observations from a re-analysis of the deposited data

Results flagged for a closer look

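For this check the fitted difference between the batches was first removed from the log2 values. Within each group of 6, the gap from the highest or lowest sample to its nearest neighbour was then taken as a share of the group's range. A sample counted as standing apart when that share exceeded Dixon's 95% critical value. Of 90 such groups, 2 for each of 45 named genes, 18 held such a sample, where chance gives about 1 in 20 for 6 like samples. These groups join 2 batches of unlike spread, and the class II genes vary together, so that rate is only a guide and the groups are not separate tests. 7 of the 9 class II genes were among them. CONV4 was the highest CONV sample for H2-DMb1 (gap share 0.695), H2-Aa (0.651) and the class I transactivator gene Nlrc5 (0.660). GF5 was the highest GF sample for H2-DMb2 (0.684), H2-Eb1 (0.799), Cd74 (0.736), Ciita (0.681), Psmb9 (0.695), Cd14 (0.766), Spats2l (0.740) and Ly6c1 (0.661), and the lowest for Lgmn (0.665). CONV6 was lowest for H2-Ea (0.704), which was not detected on any array. The rest were CONV5 highest for Nfyb (0.761), GF4 highest for Rfxank (0.721), GF2 lowest for Irf2 (0.671), GF6 lowest for Rac2 (0.754) and GF6 highest for Cd8b1 (0.655).

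The difference between GF and CONV was itself different between the batches for 5 named genes, by the interaction of batch and group in limma. Batch 2 minus batch 1 was -1.27 for Cd3g (adjusted p = 0.00633), -1.75 for Cd68 (adjusted p = 0.00696), -1.74 for Cd83 (adjusted p = 0.00633), 0.71 for Ifngr2 (adjusted p = 0.0366) and -0.84 for Lck (adjusted p = 0.0281). None of the 8 tested class II genes was among them, but their standard errors of 0.59 to 1.51 mean that a large difference could be missed.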

How the results depend on the processing

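The fitted differences of the 8 class II genes were below 0 under each alternative run (32 or 33 per gene) except in batch 2 without CONV4, where H2-Aa (0.20), H2-Eb1 (0.71) and Ciita (0.23) turned above 0, 0 class II genes passed and 46 genes passed in all. H2-DMa ranged from -1.63 to -0.55 and H2-DMb1 from -1.68 to -0.37, and each passed under 28 of 33. The count of class II genes that fell was 0 with no batch term, 0 in batch 2 alone, 0 with batch 1 averaged into 1 sample per group, and 0 with the controls inferred from all rows, the most literal reading of the planned correction. It was 4 with the value table as deposited, and 8 in batch 1 alone and with array weights. Leaving out 1 array gave 2 to 5 class II genes (5 without CONV6 and 5 without GF5) and 1359 to 2123 genes in all, beside 2 and 1868 (899 higher, 969 lower). Leaving out both CONV4 and GF5, a choice made after seeing that both were high in these genes, gave 7, and nothing is drawn from it. The total was 237 with no batch term, 3792 in batch 1, 212 in batch 2, 4282 with array weights and 268 with batch 1 averaged. With the 75th percentile 1003 were higher and 904 lower. The replicate number as a block gave 1158 genes and again the 2 class II genes; same-numbered samples did not deviate together (correlations -0.254 to 0.04, 1 of 6 samples best with its own number), so the numbers pair nothing. H2-DMb2 passed under 11 of 32 alternatives. Controls by moments and by an ordinary line, those over all rows, batch 2 without CONV4 and the fit without both arrays were added after seeing the data. Dim signals, above all of Ciita and of H2-DMb1 in GF arrays, limit the folds.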
